A study of Mus musculus with 73 samples.

Results

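The chromosome contacts of an inverted piece of Xite were compared with those of the unedited allele in E14Tg2a cells, a male mouse embryonic stem (ES) cell line (strain 129/Ola, XY). Per the labels' protocols the cultures were kept on gelatin, free of feeder cells, in medium with serum and leukemia inhibitory factor. Members are all 5C libraries labelled XiteE-inv, 2 libraries, and the wild-type libraries that share their B100 and B101 codes, 2 libraries: 4 of the 73 samples of the series. Libraries were paired by number, replicate 1 with replicate 1 (B100) and replicate 2 with replicate 2 (B101). Of 297498 possible combinations of a forward and a reverse primer, 242339 had a count in at least 1 of the 4 libraries. The wild-type libraries are marked E14 in the descriptions. Both inversion libraries carry the clone mark #4, so they are 1 clone measured in 2 libraries. No test below measures the spread between inversion clones. The main model fits take their spread from 10 libraries, other edits and their clones included, with 4 residual degrees of freedom. It is therefore not the spread of the inversion and wild-type libraries alone. As a second comparison served XiteE-del, 2 libraries of the clone marks F11 and G11, both B100. Edited clones were made with CRISPR or TALENs, per the labels' protocols. The sources used here do not explain the letter E or the B codes.

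The X-inactivation centre holds Xist, whose RNA coats and silences an X chromosome, and Tsix, the antisense gene that runs across Xist and keeps it low in ES cells. Xite is an enhancer of Tsix that lies between the genes Tsx and Xist, just upstream of the main Tsix promoter. The region is folded into neighbouring domains of frequent contact (topologically associating domains), with Tsix and its enhancer in one and the Xist promoter in the other. In 5C, fixed chromatin is cut and religated, and each ligation product between the fragment of a forward primer and the fragment of a reverse primer is counted, so a count is read as the contact frequency of both fragments. An inverted piece keeps its fragments but turns their order, so a fragment at one edge comes to lie next to the former neighbour of the fragment at the other edge. Lower coordinates are called the Tsx side and higher coordinates the Xist side, after the gene order in RefSeq (GRCm38.p6). All positions are those of the deposited primer lists, on mm9, and no mm9 gene annotation was used here.

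The 4 libraries held 16811959 and 16267499 counts (wild type, replicates 1 and 2) and 22855744 and 16890442 counts (inversion). Replicate 2 of both genotypes stood apart from the B100 libraries: 0.282% and 0.281% of their counts joined chromosome X to chromosome 5, against 1.71% and 1.75% in replicate 1, and the longest of 8 distance classes took 2.79% and 2.58% of their X contacts, against 8.88% and 8.83%. Levels are given as CPM, the count scaled to a library total of 1000000. The log2 levels of 11769 pairs of 30 kb bins correlated at 0.958 between inversion and wild type within B101 and at 0.911 within B100, but at 0.867 between both inversion libraries. Values are therefore given for replicates 1 and 2 in that order, and the model fits have the B code as a term (a replicate block), which the exact permutation tests do not.

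The edited interval was located from the deletion libraries alone. Reverse fragment 574 (X:100623271-100629519) and forward fragment 575 (X:100629520-100633845) kept at most 0.059 and 0.0252 of the lower wild-type share in the deletion, which gives an interval of 10.58 kb. Forward fragment 573 on the Tsx side (X:100618973-100623270) kept at most 0.152, and with it the span was 14.87 kb, X:100618973-100633845. The outer neighbours with primers, reverse fragment 572 (X:100618507-100618972) and reverse fragment 576 (X:100633846-100636562), kept their counts. In the inversion the 3 fragments were present at 0.868, 1.04 and 0.894 of wild type in pair 1 and 1.15, 0.942 and 0.942 in pair 2, in the order 573, 574 and 575. The sequence that the deletion lacks was thus present in the inversion libraries, as it would be on an unedited allele too, so these levels do not bear on its order. The labels used here do not give the ends of the inversion, and the span and the turned distances below assume that both edits concern the same piece. The interval took part in 0.314% and 0.382% of X contacts in wild type and in 0.289% and 0.357% in the inversion, which overlapped (exact permutation test without pairing, two-sided, p = 0.667) but was lower by a similar amount within both pairs (-0.0246 and -0.0247 points), while the deletion held 0.00936% and 0.00603%. With 2 libraries against 2, the smallest two-sided p that this test allows is 0.33.

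Near the span, the called differences lay at its Xist-side edge. Within 25 kb, fragment 575, the Xist-side edge, contacted the Tsx-side flank more and the Xist-side flank less. Its contact with fragment 576, its next neighbour on the Xist side 3.52 kb away, had 211 and 249 CPM in wild type and 77.3 and 91.2 in the inversion (replicates 1 and 2). Both inversion libraries lay below both wild-type libraries, at 0.366 and 0.367 of wild type in pairs 1 and 2. The contact fell, with a log2 difference of -1.45 (SE 0.24, adjusted p = 5.48e-05 in edgeR's quasi-likelihood test over 153097 primer pairs). The contact of 575 with fragment 572, 12.94 kb away beyond the other edge, had 91.1 and 123 CPM in wild type and 211 and 341 in the inversion. It rose 2.32-fold in pair 1 and 2.77-fold in pair 2 (log2 1.34, SE 0.24, edgeR adjusted p = 0.000409). If the 14.87 kb span is turned in place, the distance of 575 from 576 becomes 14.07 kb and that from 572 becomes 2.4 kb.

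The other called pairs of 575 joined the next fragments out. Reverse fragment 568 (X:100611184-100613218), 19.48 kb away on the Tsx side, had 79.0 and 89.7 CPM with 575 in wild type and 172 and 220 in the inversion. That contact rose, with a log2 difference of 1.21 (SE 0.255, edgeR adjusted p = 0.0148). Reverse fragment 580 (X:100641124-100642113), 9.94 kb away on the Xist side, had 114 and 144 CPM in wild type and 55.6 and 79.4 in the inversion, and its contact fell, with a log2 difference of -0.948 (SE 0.202, edgeR adjusted p = 0.0178). Reverse fragment 578 (X:100639614-100640516), between 576 and 580, was lower in both inversion libraries as well, with 51.6 and 57.0 against 91.7 and 111 CPM, but did not pass (log2 -0.894, edgeR adjusted p = 0.159). The third higher pair by p, with reverse fragment 599 (X:100690914-100699670), had 0.12 and 5.04 CPM in wild type and 5.43 and 5.39 in the inversion (edgeR adjusted p = 1.0).

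These 4 calls all belong to fragment 575 and lie within 20.48 kb once the span is turned. They were among 37 calls (14 higher, 23 lower) over all primer pairs, a background of 0.0242%. None of the 33 calls elsewhere joined fragments under 100 kb apart, and 28 of them joined fragments over 400 kb apart or on different chromosomes. In 21 of the 33, wild-type replicate 1 exceeded replicate 2 by over 10 times. All 4 calls were lost without the replicate block (adjusted p = 0.519 with 576, 0.734 with 572, 1.0 with 568 and with 580), with log2 differences there of -1.45, 1.37, 1.22 and -0.94. In a fit of the 4 libraries alone, the calls with 576 and 572 remained (edgeR adjusted p = 0.0079 and 0.0201). The calls with 568 (edgeR adjusted p = 0.105) and with 580 were lost there. Leaving out 1 library of a pair leaves only the other pair in the contrast, so the direction repeats the ratio of that pair. The log2 differences were then -1.45 with 576 and 1.21 to 1.47 with 572. With 568 they were 1.12 to 1.29, and with 580 -1.04 to -0.86. Among these fits, the calls with 576 and 580 remained only without inversion replicate 2. Those with 572 and 568 were lost whichever of the 4 libraries was left out.

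**Figure D1:**
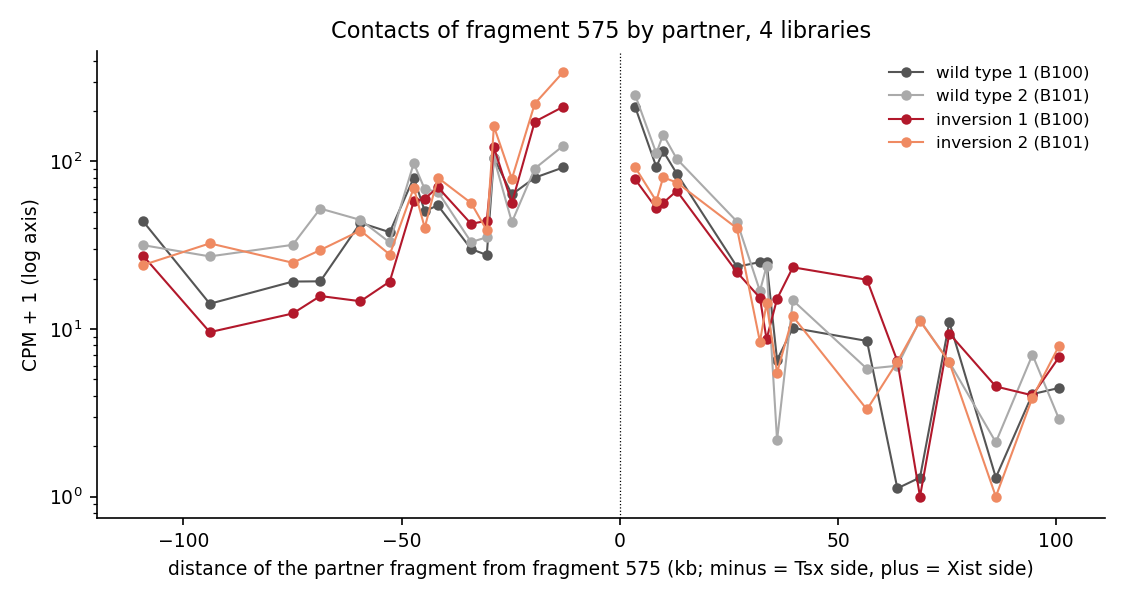
CPM plus 1 (log axis) of fragment 575 with each reverse fragment up to 100 kb outside the span, by signed distance in kb, 1 point per partner and library, with lines joining the partners of a library. Next to 575 on the Xist side both inversion libraries sit at 77.3 and 91.2 CPM under wild type at 211 and 249, and on the Tsx side at 12.94 kb they sit at 211 and 341 over wild type at 91.1 and 123.

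On the Tsx side, the sign of the difference changed with distance. All 15 pairs of 575 with Tsx-side fragments up to 100 kb from the span were tested, and in all 15 the turned distance is the shorter one. In 6 of them both inversion libraries lay above both wild-type libraries, and in 4 below, against 11.3% and 14.1% of all primer pairs tested. The 6 included the 2 called pairs and the partners 557, 559, 562 and 564 at 28.84 to 41.68 kb (log2 0.324 to 0.653, none called). Among the 4, at 47.2, 52.7 and 59.41 kb, the inversion lay below wild type (log2 -0.485, -0.632 and -0.918, none called). On the Xist side 16 pairs were tested, with 7 below, 2 above and 7 overlapping, and a median log2 of -0.48. The 4 Xist-side partners within 25 kb were all below.

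Fragment 573, the Tsx-side edge, gave values in the mirrored direction with 572, 568 and 576, at lower counts and without a call. With its neighbour 572, 2.38 kb away, it had 19.1 and 30.6 CPM in wild type and 3.33 and 12.4 in the inversion (log2 -1.91, SE 0.593, edgeR adjusted p = 0.706). With 568 it had 44.0 and 72.0 in wild type and 23.4 and 30.5 in the inversion (log2 -1.07, edgeR adjusted p = 0.973). With 576, which lies 14.08 kb away in wild type and 3.51 kb away on a turned span, it had 0 and 22 counts in wild type and 67 and 187 in the inversion (log2 5.11, SE 3.94, edgeR adjusted p = 1.0). So at both edges the wild-type neighbours (573 with 572, 575 with 576) had lower values in both inversion libraries and the neighbours of a turned span (575 with 572, 573 with 576) higher ones, while the test passed for those of fragment 575 only.

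Fragment 574, in the middle of the span, had no called pair. With its nearest Tsx-side partner, forward fragment 569, it had 10.17 and 25.02 CPM in wild type and 26.21 and 25.10 in the inversion (log2 0.683, SE 0.609). Pair 2 thus hardly differed. With forward fragment 577, the nearest on the Xist side, both inversion libraries lay below wild type (log2 -0.685, SE 0.517). With the next partners, 567 (log2 -0.0665) and 579 (log2 -0.351), the libraries overlapped. Its counts summed within 25 kb, pairs inside the span included, overlapped on the Tsx side (log2 0.27) and the Xist side (log2 -0.135). Within 25 kb the median log2 of 574 was 0.43 on the Tsx side and -0.35 on the Xist side. The cause of these differences was not tested. None of the tested pairs of 574 with fragments up to 100 kb outside the span was called. The inversion and wild-type libraries overlapped in 13 of 15 on the Tsx side and 12 of 14 on the Xist side. Its midpoint lies near the middle of the span, so turning leaves its distances almost as they were (11.93 and 11.96 kb from forward fragment 569). Neither of the 2 pairs within the span was called. The pair of 574 with 575 had 88.8 and 108 CPM in wild type and 74.1 and 129 in the inversion (log2 0.00, SE 0.273), and the pair of 573 with 574 had 4.1 and 10.9 in wild type and 6.21 and 17.3 in the inversion (log2 0.629, SE 0.911).

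**Figure D2:**
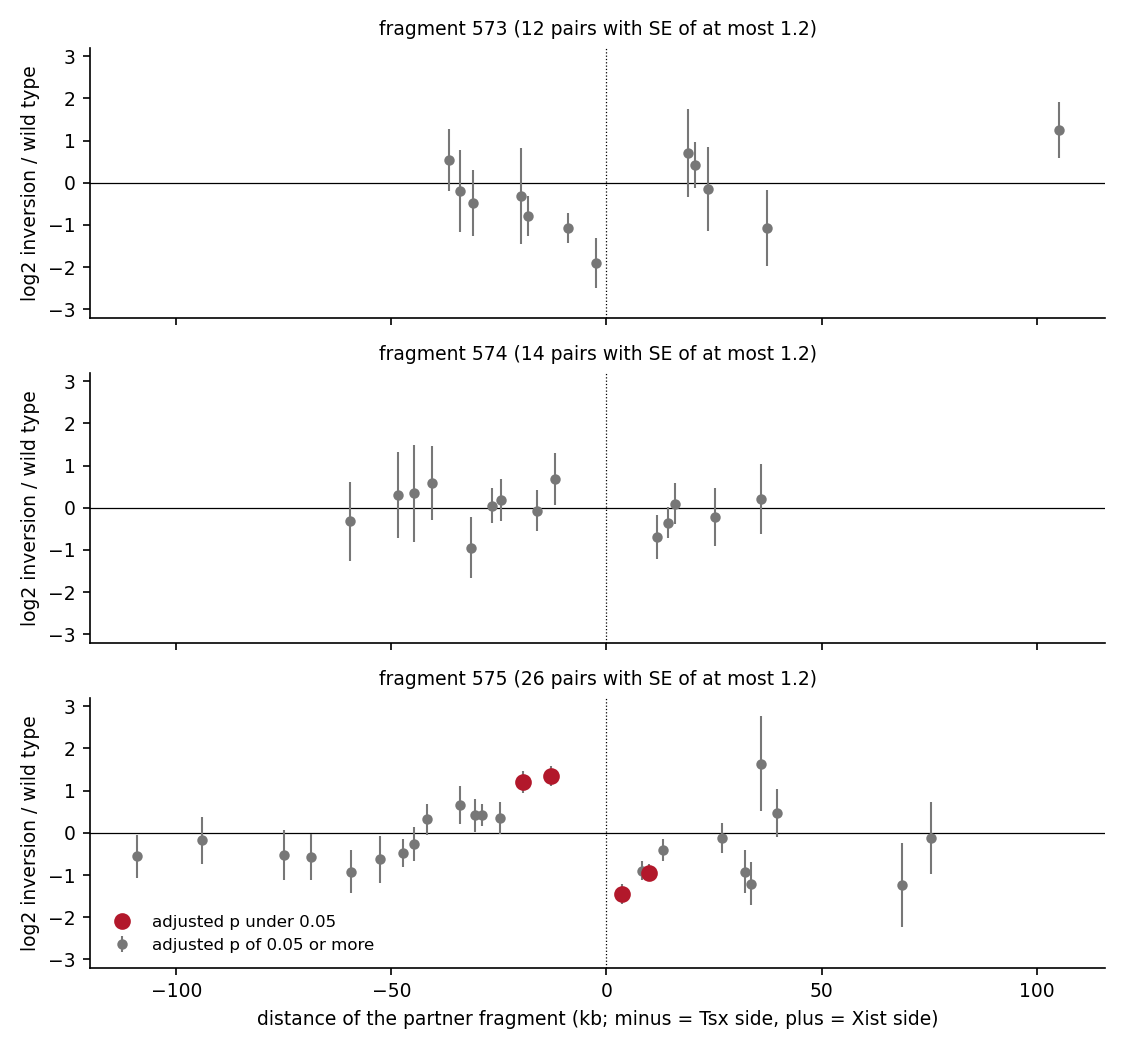
Log2 ratio of inversion to wild type with its SE (edgeR) for pairs of fragments 573, 574 and 575 with fragments up to 100 kb outside the span, by signed distance in kb. Pairs with an SE over 1.2 are left out, and red points passed an adjusted p of 0.05. Fragment 575 is high near the Tsx side and low near the Xist side, with the called pairs at 1.34, 1.21, -0.95 and -1.45, fragment 573 is low next to its Tsx-side neighbour at -1.91, and fragment 574 has no called pair.

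Summing each primer's counts by side and distance window gave the same place a second time from the same reads, with less counting error. Over 13397 such windows of all primers, 2 were called (0.0149%), and both were the nearest windows of fragment 575. Its contacts within 25 kb on the Xist side had 500 and 606 CPM in wild type and 250.2 and 302 in the inversion, a log2 difference of -1.0 (SE 0.137, edgeR adjusted p = 0.00111). Its contacts within 25 kb on the Tsx side, 574 included, had 321 and 363 in wild type and 512 and 768 in the inversion, a log2 difference of 0.877 (SE 0.148, edgeR adjusted p = 0.0195). The next by p was the Tsx-side window of 573 within 25 kb, with 122 and 159 in wild type and 49.6 and 93.2 in the inversion (log2 -1.03, edgeR adjusted p = 0.34), followed by the Xist-side window of 572 (log2 0.647, edgeR adjusted p = 0.595). The Tsx-side window of 576 ranked 6 (log2 -0.899, edgeR adjusted p = 0.996). The windows of 572 and 576 hold the called pairs of these fragments with 575, so they count the same reads from the other end. Both inversion libraries lay above both wild-type libraries in 7.05% of all windows and below in 9.99%. Windows were added after the data were seen, and both calls were lost without the replicate block (adjusted p = 1.0 for each), without inversion replicate 1 (0.0672 for each) and without wild-type replicate 1 (0.0628 for each). The Tsx-side window was also lost without inversion replicate 2 (0.214) and without wild-type replicate 2 (0.177), edgeR adjusted p in each case.

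**Figure D3:**
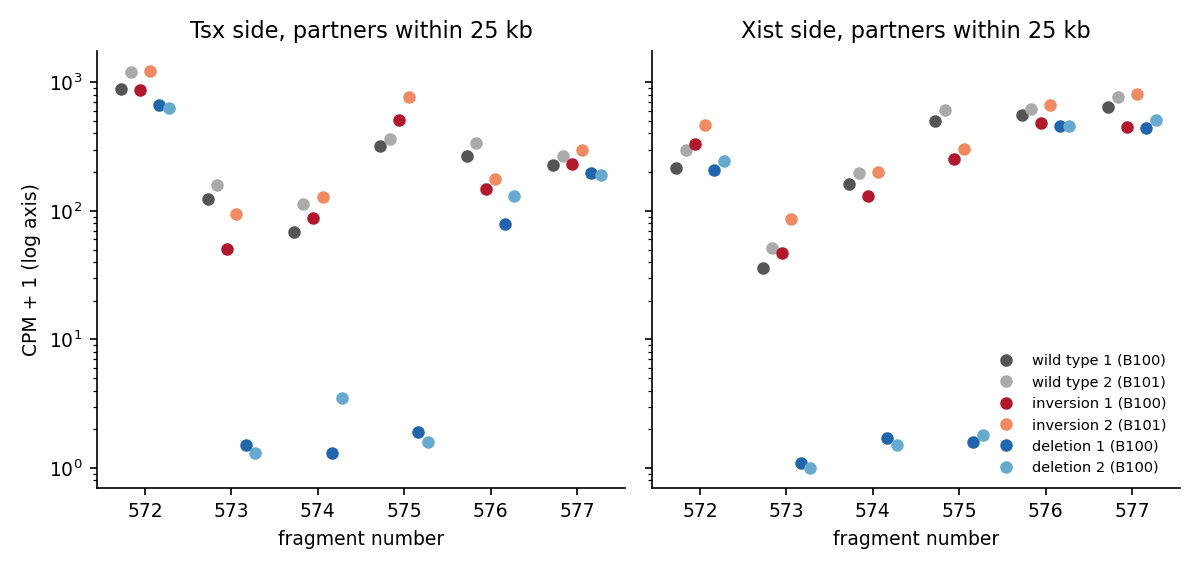
CPM plus 1 (log axis) of fragments 572 to 577 with partners within 25 kb on either side, 1 point per library. For fragment 575 the inversion (red and orange) lies above wild type (greys) on the Tsx side and below it on the Xist side, and the deletion libraries (blue) sit near 1 for fragments 573 to 575.

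**Figure D4:**
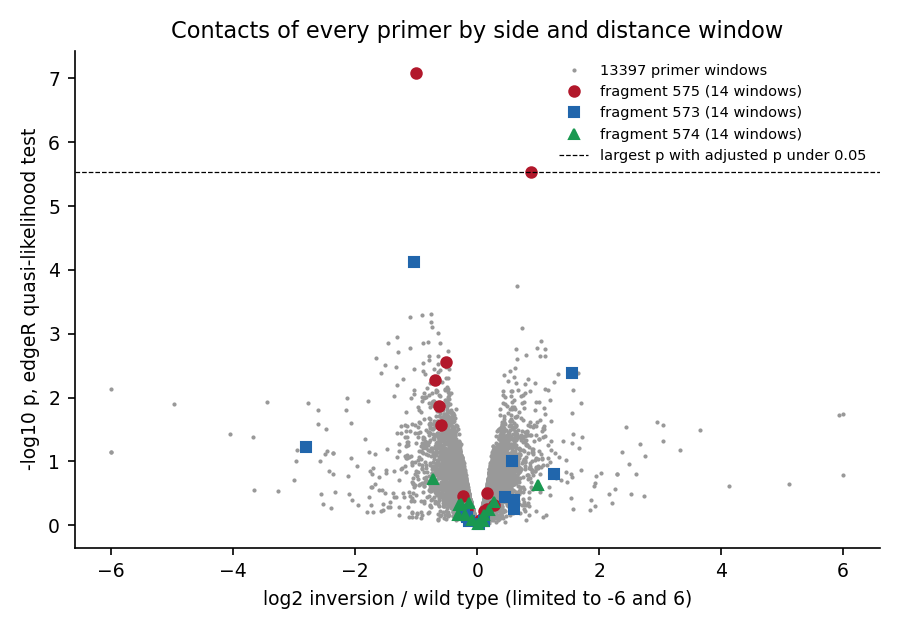
Log2 ratio of inversion to wild type against -log10 p (edgeR) for 13397 windows of all primers, with the windows of fragments 573, 574 and 575 coloured. Only the nearest Xist-side window (-1.0) and the nearest Tsx-side window (0.877) of fragment 575 reach the dashed line.

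Beyond 25 kb no window of the 3 fragments was called. Fragment 575 had lower mean values on the Tsx side at 50 to 100 kb (129 and 184 CPM in wild type, 66.5 and 148 in the inversion), at 100 to 200 kb (443 and 509 against 310.3 and 355) and at 200 to 400 kb (140 and 195 against 84.0 and 143), with log2 ratios of -0.628, -0.517 and -0.591 and an edgeR adjusted p of 0.996 each. On that side both inversion libraries lay below both wild-type libraries at 100 to 200 kb and over 800 kb, and the libraries overlapped in the other windows beyond 25 kb. On the Xist side both inversion libraries lay below at 25 to 50 kb, with 79.4 and 75.0 against 85.6 and 96.3 CPM (log2 -0.235). The libraries overlapped there at 50 to 100 kb, at 400 to 800 kb, over 800 kb and at 200 to 400 kb. In that last window 53.0 and 94.2 in wild type stood against 31.8 and 59.6 (log2 -0.698, edgeR adjusted p = 0.996). At 100 to 200 kb on the Xist side both inversion libraries lay above wild type, with 70.8 and 75.4 against 62.0 and 69.5 (log2 0.154). For fragment 573 the Tsx-side window at 200 to 400 kb had 17.8 and 14.6 CPM in wild type and 51.0 and 44.0 in the inversion (log2 1.56, edgeR adjusted p = 0.996).

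Of the measures over the whole interval (574 and 575), the balance of both sides and the share seen from the Xist side did not overlap between genotypes. The log2 ratio of its contacts up to 300 kb on the Xist side over those on the Tsx side was -0.856 and -0.91 in wild type and -1.43 and -1.64 in the inversion, a difference of -0.576 and -0.73 within pairs. The groups did not overlap, and the exact permutation p was 0.33, the smallest possible. In the 4 libraries of the neighbouring XiteC edits the same ratio was 0.455 to 0.668, and 575 had 258 to 328 CPM within 25 kb on the Tsx side and 565 to 1040 on the Xist side. Those edits thus sat on the other side of wild type from the inversion in this ratio (this difference was not tested). Seen from the Xist-side flank within 100 kb, the share of interval contacts that fell on the far fragment 574 was 16.3% and 15.5% in wild type and 20.0% and 23.1% in the inversion (exact permutation p = 0.33). Seen from the Tsx-side flank, the share on the far fragment 575 overlapped, at 83.3% and 73.8% in wild type and 82.3% and 81.9% in the inversion (exact permutation p = 1.0), with differences of -0.962 points in pair 1 and 8.11 in pair 2.

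Contacts that pass over the span overlapped between inversion and wild type. Between the flanks within 25 kb of either edge, leaving out the span itself, the 54 primer pairs summed to 1589 and 1794 CPM in wild type and 1517 and 1714 in the inversion, lower in both pairs at a mean of 0.955 of wild type, and to 1700 and 2046 in the deletion. Within 100 kb the sums were 4792 and 5606 in wild type, 4589 and 5075 in the inversion and 4427 and 4716 in the deletion. The share of contacts within 300 kb that crossed the middle of the interval, a measure of how far it separates its flanks, was 16.4% and 15.4% in wild type and 16.6% and 13.9% in the inversion (exact permutation p = 1.0). The difference was 0.263 percentage points in pair 1 and -1.49 in pair 2. At 133 positions 30 kb apart across the region, the difference ranged from -0.345 to 2.27 points in pair 1, with a median of 1.1. In pair 2 it ranged from -2.0 to -0.286, with a median of -1.22. The interval lay inside this range but under the median in both pairs. The lowest position of pair 2, X:100590000, lies in the Tsx-side flank of the span. Whether the interval differs from the region was not tested.

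At the scale of 30 kb bins, edgeR's fit of 10 libraries called no difference from wild type. Of 11769 bin pairs 0 passed in edgeR (0.0%), with 695 at an unadjusted p under 0.05, and 0 passed with bins of 15 or 60 kb. DESeq2 called 51 (10 higher, 41 lower), and edgeR called 8 in a fit of the 4 libraries alone. The 30 kb bin of the interval, X:100620001-100650000, also holds fragments 576, 578 and 580, while 568 and 572 lie in the next bin on the Tsx side. Contacts with that next bin were 2176 and 2533 CPM in wild type and 2277 and 2827 in the inversion (log2 0.112, edgeR adjusted p = 0.919). Of the 21 bin pairs of the interval's bin up to 300 kb away, 19 overlapped between genotypes, 2 were below and 0 above. The matching share over all 11769 bin pairs is not given here, so these counts have no background to be read against. Among the 21, log2 ratios ran from -0.18 to 0.23. The lowest p belonged to contacts within the bin, with 3522 and 4316 CPM in wild type and 2767 and 4318 in the inversion (log2 -0.174, edgeR adjusted p = 0.844), followed by the bin 60 kb away on the Tsx side (log2 -0.181, edgeR adjusted p = 0.852). Among the higher pairs the bin 300 kb away on the Tsx side had the lowest p (log2 0.234, edgeR adjusted p = 0.906). Contacts by distance class overlapped between genotypes in all 8 classes. In the class under 30 kb they were 30.7% and 39.4% of X contacts in wild type and 28.6% and 43.0% in the inversion (exact permutation p = 1.0).

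**Figure D5:**
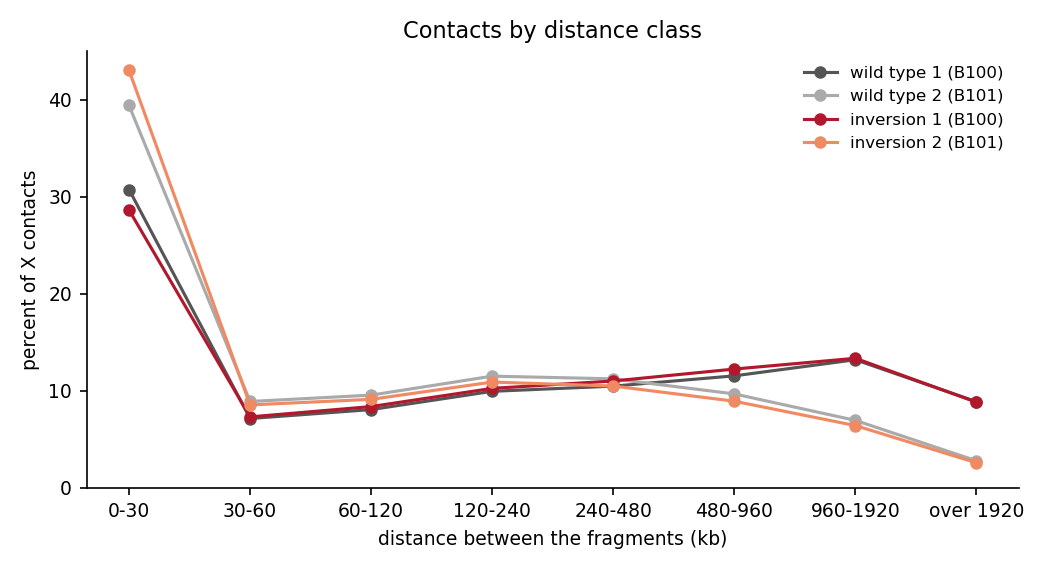
Percent of X contacts in 8 classes of distance in kb, 1 line per library. Libraries of the same B code run together: under 30 kb wild type and inversion of B100 sit at 30.7% and 28.6% and those of B101 at 39.4% and 43.0%.

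The inversion was also compared with XiteE-del. Of 11769 bin pairs 4 were called between inversion and deletion (0.034%), 1 higher and 3 lower in the inversion. The lowest p belonged to a contact over 420 kb, between X:100170001-100200000 and X:100590001-100620000, the bin just on the Tsx side of the interval. It had 239 and 305 CPM in wild type and 229 and 289 in the inversion, against 492 and 544 in the deletion. The log2 difference of inversion from deletion was -1.18 (SE 0.158, edgeR adjusted p = 0.0081), and its difference from wild type was -0.07 (SE 0.138, edgeR adjusted p = 0.968). The windows at 400 to 800 kb on the Tsx side of fragments 568, 569 and 572 take in this contact and so count some of its reads again. They were lower in the inversion than in the deletion (log2 -1.42, -2.27 and -1.47, edgeR adjusted p = 0.0315, 8.74e-05 and 0.016). For 569 the window had 38.7 and 48.0 CPM in wild type, 20.7 and 31.7 in the inversion and 102 and 109 in the deletion.

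The 1 higher bin pair held the interval itself, with the bin X:100560001-100590000 (1296 and 1701 CPM in wild type, 1142 and 1503 in the inversion, 674 and 748 in the deletion). The log2 difference of inversion from deletion was 0.684 (edgeR adjusted p = 0.0499). Because the deletion lacks the span, which lies in the interval's bin, at least part of this difference is fixed by that loss. Of the other 2 lower pairs, X:103080001-103110000 with X:103410001-103440000 had 2.1 and 28.5 CPM in the inversion and 16.2 and 19.2 in the deletion, so inversion replicate 2 lay above both deletion libraries. The pair of the bin beside the interval with X:101760001-101790000 had 5.78 and 12.8 CPM in the inversion and 43.8 and 30.6 in the deletion. Of 300 single primer pairs called between inversion and deletion (0.196%), 95 touched the span and all 95 were higher in the inversion, as loss of the span in the deletion fixes. Of the other 205, 55 were higher and 150 lower. Of 49 called windows (0.366%), 33 belonged to the 3 fragments, where loss of the span in the deletion fixes the outcome too. Some of the other 16 reach into the span from outside and count the same missing reads. Among them are Xist-side windows of 553, 555, 557 and 568 and Tsx-side windows of 584 and 590, all higher in the inversion. Both deletion libraries are B100, and no bin pair was called without the replicate block or without inversion replicate 2.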

How the data were processed

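Per the labels and the values, each deposited 5C file gives the count of every pair of a forward and a reverse primer. The submitters' processing notes list Bowtie2 and the build mm9, with no read filters in the sources used here. The deposited primer lists give fragment positions (other than a measurement). The 10 libraries held totals of 16267499 to 23928188.

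Primer pairs were summed into 30 kb bin pairs, kept at a mean of at least 10, and tested with edgeR 4.0.16 (R 4.3.3; quasi-likelihood, library total as offset, 10 libraries, genotype and B code, 4 residual degrees of freedom, Benjamini-Hochberg, threshold 0.05). The same fit was run on single primer pairs and, added after the data were seen, on each primer's counts by side and distance window. The biological coefficient of variation was 47.9%, 133% and 19.7%. CPM are counts scaled to a library total of 1000000. Within-library shares were compared by exact permutation.

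The pairing by replicate number follows the shared B code of the labels. Deviations from the genotype mean correlated at 0.536 between replicate 1 libraries over bin pairs and at 0.198 over single primer pairs, where inversion replicate 1 correlated at 0.609 with wild-type replicate 1 and at 0.632 with wild-type replicate 2.

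The edited interval was the group of X primers with at least 1000 wild-type counts whose share in each deletion library was under 0.1 of the lower wild-type share. Named bin pairs were those of the interval's bin with the smallest p and up to 3 called pairs per direction against the deletion, and named primer pairs the 3 higher and 3 lower of interval primers with the smallest p. Other fragments were chosen after their values were seen. Members and measures were chosen with earlier results of these data known.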

Additional observations from a re-analysis of the deposited data

How the results depend on the processing

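Without the replicate block, called pairs against wild type numbered 0 for 30 kb bins, 14 for single primer pairs (37 with it) and 0 for primer windows (2 with it), and 0 bin pairs were called against the deletion (4 with it). Against wild type, bin pairs numbered 8 in a fit of the 4 libraries, 37 as single primer pairs and 51 in DESeq2, and 0 to 13 with 1 library left out (7 without inversion replicate 1, 13 without wild-type replicate 1). Single primer pairs numbered 13 in the fit of 4 libraries and 84 to 1617 with 1 library left out (84 without inversion replicate 1, 1617 without inversion replicate 2, 117 without wild-type replicate 1 and 1558 without wild-type replicate 2). Windows numbered 11 in the fit of 4 libraries and 0 to 27 with 1 left out: 0 without inversion or wild-type replicate 1, 26 without inversion replicate 2 and 27 without wild-type replicate 2. Against the deletion, bin pairs numbered 2 in the fit of 4 libraries, 2 with TMM scaling, 8 scaled within distance classes, 1 with 60 kb bins, 56 with 15 kb bins, 300 as single primer pairs, 89 in DESeq2 and 0 to 6 with 1 library left out (2 and 0 without inversion replicates 1 and 2, 1 and 6 without deletion replicates 1 and 2). The direction of the 6 results on a pair or window of fragment 575 was kept in all 40 alternatives, and the call was lost in 28. These alternatives are not independent. With the B code in the fit, leaving out either library of a pair leaves only the other pair in the contrast. The direction then repeats the ratio of that pair. The windows also hold the called pairs. With fragment 573 in the interval, the rise of the far share seen from the Xist side was 9.27 points (5.64 without it), and with flanks of 150 kb the balance was lower by -0.855 (-0.653 with 300 kb). Leaving out 1 library gave 4.06 to 7.22 points and -0.757 to -0.549. Where 1 library was left, its spread was taken to be that of the other genotypes. Pairs over 960 kb apart were the least repeatable, with a correlation of 0.262 between both wild-type libraries over 61944 primer pairs, against 0.863 under 120 kb. The cause of these dependences was not tested.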

Other observations

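Of the 33 called primer pairs away from the span, 8 shared forward fragment 133 (X:99307242-99310241), whose total was 8278 CPM in wild-type replicate 1, 3043 in inversion replicate 1, 74.9 in wild-type replicate 2 and 61.5 in inversion replicate 2. Another 3 shared forward fragment 1089. In 9 of the 33 one genotype had at most 3 counts over both its libraries. Of the 5 pairs under 400 kb apart, the pair of forward fragment 743 and reverse fragment 825, 202.9 kb apart, had 9.34 and 7.13 CPM in wild type, 0.13 and 0.06 in the inversion and 3.09 and 9.40 in the deletion. These pairs were singled out after their values were seen.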
